A study of Mus musculus with 6 samples.

Results

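Chemokines are small secreted proteins that draw leukocytes along a gradient, and they act through receptors coupled to G proteins on the cells they attract. Ligands are grouped by the spacing of their first cysteines into CC, CXC, CX3C and C families, and atypical receptors bind ligands without signalling through G proteins, and so remove or redistribute them. In the liver they are made by hepatocytes, Kupffer cells, sinusoidal endothelium, stellate cells and bile duct cells, and injury of the organ is often followed by entry of neutrophils and monocytes that follow them. The genes described here are those whose symbol begins with Ccl, Cxcl, Cx3cl, Xcl, Ccr, Cxcr, Cx3cr or Ackr and a digit, which gave 53 genes, 33 ligands and 20 receptors, of 18193 genes named on the array. These 53 genes were measured by 85 probe sets, and where a gene had several, the one brightest on average (mean log2 over the 6 arrays) stood for it.

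Whole-liver RNA came from male FRG mice on a C57Bl/6J background, 12 weeks of age, with 1 Affymetrix mouse genome array per mouse. All 6 mice were Fah-/-, Rag2-/- and Il2rg-/-, so they lacked the last enzyme of tyrosine breakdown and could form no mature T, B or NK cells, and all were fed 5LJ5, a chow low in tyrosine and phenylalanine. The 3 FRG+NTBC mice drank 16 mg/L NTBC, a blocker of Hpd, in water with 3% dextrose, and the 3 FRG-7dNTBC mice were taken off NTBC at 11 weeks of age for 7 days. There was no Fah-sufficient or lymphocyte-replete group, so chemokine genes were compared only between livers that share all 3 deletions. Probe set intensities were deposited on a linear scale, and limma was run on their log2 with p-values adjusted over all 45037 probe sets. A gene is called dim here where both group means lay under an intensity of 20. Rag2 averaged 20.1 in both groups. The Fah probe set averaged 198 ± 16.5 on NTBC and 95.5 ± 20.2 after withdrawal (SD, n = 3; adjusted p = 0.00258, limma), although both groups carry the knockout, and where its probes lie relative to the disrupted part was not examined, so it does not check the labels. Markers of T cells, which these mice cannot form, ranged on NTBC from a mean of 9.04 (Cd3g) to one of 102 (Cd8a). The probe set of a T cell marker can thus show that much signal in livers without T cells. Whether other liver cells express Cd8a was not examined, so its value may not be background. Probe sets differ in background, so the Cd8a value is only a guide for others. Of the 53 chemokine and receptor genes, 43 lay below the Cd8a value in both groups. In whole-liver RNA, fewer cells of a type and less RNA per cell cannot be told apart.

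The promoters of 5 ligand genes are given first, because these genes lie in the same cluster as one another on chromosome 5 or on chromosome 11 and either changed in opposite directions or had signal well above 20 in only 1 of them. Each sequence is the 250 bases before the annotated start of transcription, 5′ to 3′ on the strand of the gene, from RefSeq on GRCm38.p6. Capitals mark matches to the binding motif of NF-κB, the factor through which TNF and IL-1 induce many chemokine genes, searched on both strands with overlapping matches joined. Cxcl1, Cxcl2 and Cxcl3 encode neutrophil attractants on chromosome 5, and Ccl9 and Ccl6 encode ligands of Ccr1 on chromosome 11. Cxcl1 is at chr5:90890995-90891244 (plus strand), Cxcl2 at chr5:90903649-90903898 (plus strand), Cxcl3 at chr5:90785851-90786100 (plus strand), Ccl9 at chr11:83578637-83578886 (minus strand) and Ccl6 at chr11:83593088-83593337 (minus strand).
Cxcl1: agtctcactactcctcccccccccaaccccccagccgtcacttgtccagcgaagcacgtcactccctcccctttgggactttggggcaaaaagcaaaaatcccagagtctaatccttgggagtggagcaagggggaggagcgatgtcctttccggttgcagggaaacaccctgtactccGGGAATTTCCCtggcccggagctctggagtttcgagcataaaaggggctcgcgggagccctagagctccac
Cxcl2: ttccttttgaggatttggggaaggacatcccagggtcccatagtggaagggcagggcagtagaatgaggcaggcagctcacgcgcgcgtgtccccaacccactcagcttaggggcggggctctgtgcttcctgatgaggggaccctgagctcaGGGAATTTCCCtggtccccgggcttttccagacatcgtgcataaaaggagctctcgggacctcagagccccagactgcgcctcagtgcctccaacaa
Cxcl3: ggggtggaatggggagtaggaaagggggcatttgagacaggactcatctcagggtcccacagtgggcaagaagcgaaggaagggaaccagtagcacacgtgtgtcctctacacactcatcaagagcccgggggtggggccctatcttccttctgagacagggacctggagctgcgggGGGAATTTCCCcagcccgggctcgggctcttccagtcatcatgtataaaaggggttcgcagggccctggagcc
Ccl9: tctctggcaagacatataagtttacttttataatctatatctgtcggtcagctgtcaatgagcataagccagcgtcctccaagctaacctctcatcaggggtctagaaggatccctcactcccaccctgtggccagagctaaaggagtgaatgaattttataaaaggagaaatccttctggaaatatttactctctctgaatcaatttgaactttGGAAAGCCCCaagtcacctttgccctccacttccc
Ccl6: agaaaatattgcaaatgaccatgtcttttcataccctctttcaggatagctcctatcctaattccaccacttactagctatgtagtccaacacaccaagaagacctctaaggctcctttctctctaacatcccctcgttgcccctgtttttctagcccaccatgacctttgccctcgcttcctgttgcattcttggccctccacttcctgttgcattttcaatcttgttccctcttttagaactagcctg
The same stretch of 11 bases, GGGAATTTCCC, stood in the windows of Cxcl1, Cxcl2 and Cxcl3, beginning 71, 97 and 73 bases before their starts, and 14 of 32851 windows of all genes held it. The Ccl9 window held the 10 bases GGAAAGCCCC, beginning 35 bases before the start, and the Ccl6 window held no match. RefSeq windows were matched for 40 of the 53 genes, some with more than 1 start, giving 44 windows, and 11 of these held an NF-κB match against 7.25% of all windows. The TATA box, written TATAAA, was in 12 of the 44 windows and in 7.59% of all windows. The antioxidant response element TGACNNNGC was in 3 of the 44 and in 10.2% of all, and the C/EBP motif TTGCNNAA was in 4 and in 9.56%. These are matches of letters and show no binding.

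After 7 days without NTBC, 13 of the 53 genes had changed past the threshold (adjusted p under 0.05, limma), 5 higher and 8 lower. Among all 18193 genes, 17.4% were called higher and 12.7% lower, against 9.43% and 15.1% of the chemokine and receptor genes. At a fold of at least 2 the genes numbered 2 higher and 3 lower, 3.77% and 5.66%, where all genes gave 8.94% and 4.95%. The values of the groups did not overlap in 19 of 53 genes, or 35.8%, against 46.2% of all genes. Their median log2 fold change was -0.12, beside -0.05 over all genes. Of the 33 ligands 2 were higher and 7 lower, or 6.06% and 21.2%. Of the 20 receptors 3 were higher and 1 lower, or 15% and 5%. The higher genes were Ccl25, Ccl6, Ackr4, Ccr10 and Cxcr4, and the lower genes were Ccl9, Ccl27a, Cxcl12, Cxcl1, Ccl4, Cxcl13, Cxcr3 and Ccl22. Cxcr4 and Ccl22 were dim, so no fold is given for either. The number of lower genes was 4 without FRG+NTBC mouse 2 and 4 without FRG-7dNTBC mouse 1.

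**Figure D1:**
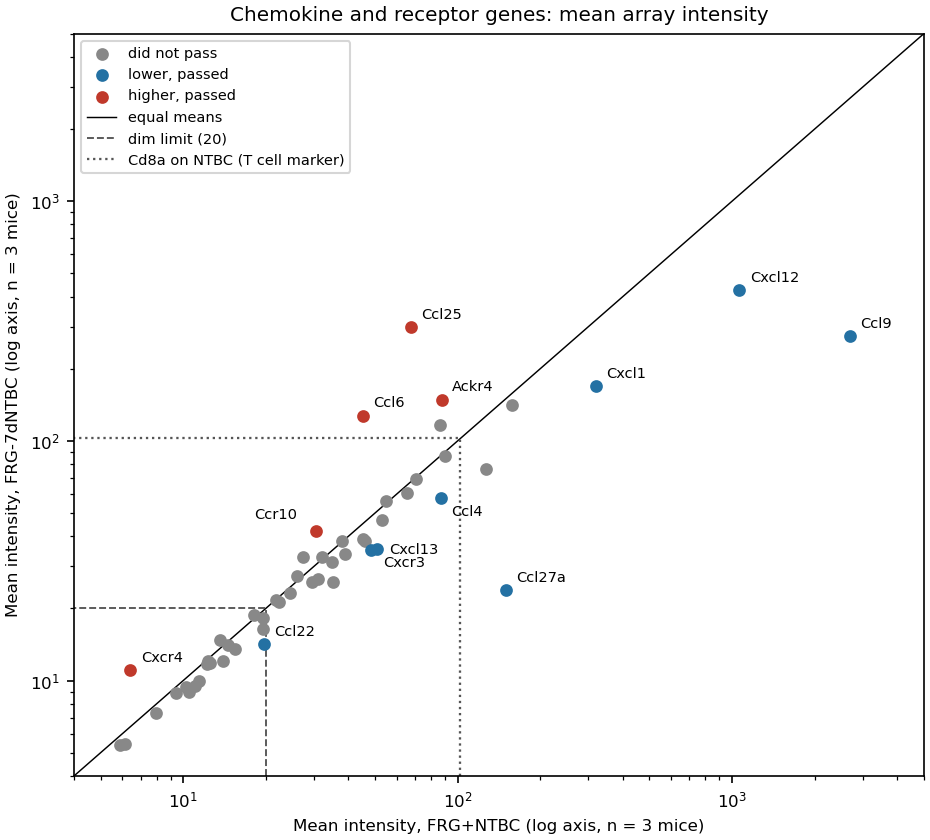
Mean intensity of each of the 53 genes in FRG-7dNTBC livers (vertical, log axis) against FRG+NTBC livers (horizontal, log axis), n = 3 mice per group, with calls by limma in colour, the dim limit dashed and the Cd8a mean on NTBC dotted. Ccl9, Cxcl12, Cxcl1 and Ccl27a lie below the line of equal means and Ccl25, Ccl6 and Ackr4 above it, while 20 genes fall inside the dim limit.

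The 20 dim genes were the ligands Ccl2, Ccl3, Ccl11, Ccl12, Ccl20, Ccl22, Cxcl2, Cxcl3, Cxcl5, Cxcl15 and Xcl1 and the receptors Ccr1, Ccr3, Ccr4, Ccr8, Ccr9, Cxcr4, Cxcr5, Cxcr6 and Ackr3. They made up 37.7% of the chemokine and receptor genes, and 21.5% of all genes were dim. Dim genes were seldom called, 2 of the 20 here and 132 of 3913 among all genes. Of genes that were not dim, 11 of 33 here and 5354 of 14280 among all genes were called. The shares called given above therefore compare sets that differ in signal. Just inside the limit lay Ccl20, Cxcl15 and Ccl22, whose higher group means were 19.5, 19.5 and 19.7. Just outside lay Ccr1l1, Ccl7 and Ccr7 at 21.8, 22.3 and 24.4.

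Among the macrophage inflammatory protein (MIP) family of CC ligands and Ccl5, which attract monocytes, macrophages and other leukocytes, 2 of 5 fell and 1 rose. These shares were 40% and 20%, where 12.7% of all genes were called lower and 17.4% higher. Ccl9, a ligand of Ccr1 made by myeloid and other cells (GRCm38.p6 chr11:83572917-83578636), had intensities of 1951, 3083 and 3040 in the FRG+NTBC mice and 365, 180 and 274 in the FRG-7dNTBC mice. Every mouse on NTBC was above every mouse off it. Mean intensity was 2691 ± 642 on NTBC and 273 ± 92.4 after withdrawal (SD, 3 mice each), 10.1-fold lower (log2 fold change -3.33, SE 0.28, adjusted p = 0.000178, limma). The second probe set of Ccl9 read 108, 329 and 350 on NTBC and 111, 111 and 61.8 after withdrawal. FRG+NTBC mouse 1 overlapped the withdrawn mice there, and the log2 fold change of -1.35 did not pass (adjusted p = 0.0577, limma).

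Ccl6, another Ccr1 ligand of myeloid cells and the direct neighbour of Ccl9 (chr11:83587886-83593087), moved the other way. Its intensities were 34.8, 41.6 and 58.9 on NTBC and 90.5, 122 and 170 after withdrawal. The withdrawn mice all lay above the others and were spread over a wider range. The log2 fold change was 1.49 (SE 0.27, adjusted p = 0.00463, limma), from 45.1 ± 12.4 to 128 ± 40.1 (SD, n = 3). The second Ccl6 probe set also rose, by 1.40 on the log2 scale. The lncRNA gene E230016K23Rik is annotated across Ccl6, and its own probe set was dim.

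Ccl4, or MIP-1β, a chemokine of activated macrophages and lymphocytes, read 99.0, 85.0 and 77.2 on NTBC and 49.2, 64.5 and 60.6 after withdrawal. The groups did not overlap, and all 6 values lay below the Cd8a mean. Its log2 fold change was -0.59 (SE 0.16, adjusted p = 0.0254, limma), but the call was lost without FRG+NTBC mouse 1 (adjusted p = 0.0801, limma), without FRG+NTBC mouse 2 (0.0742) and without FRG-7dNTBC mouse 1 (0.0905). Ccl5, or RANTES, went from 46.1 ± 4.88 to 38.1 ± 7.14 and did not pass, and Ccl3, or MIP-1α, was dim. Ccr1, the receptor of Ccl9, Ccl6 and Ccl3, was dim by both probe sets. The annotated gene bodies of Ccl3 and Ccl4 overlap.

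No ligand of Ccr2, the receptor that brings monocytes out of the bone marrow, passed the test. Ccl2, or MCP-1, the main monocyte attractant, read 18.1, 16.9 and 19.4 on NTBC and 19.3, 19.0 and 17.9 after withdrawal. The groups overlapped, and both Ccl2 and Ccl12 were dim, so no difference is read from either. Ccl7 and Ccl8 had log2 differences of -0.06 and -0.17. Ccr2 itself averaged 45.3 ± 6.26 and 39.1 ± 6.89, and none of its 4 probe sets passed. None of 6 measured monocyte markers passed, with a summed intensity of 323 to 358 on NTBC and 369 to 736 after withdrawal, of which Itgam and Chil3 were dim.

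**Figure D2:**
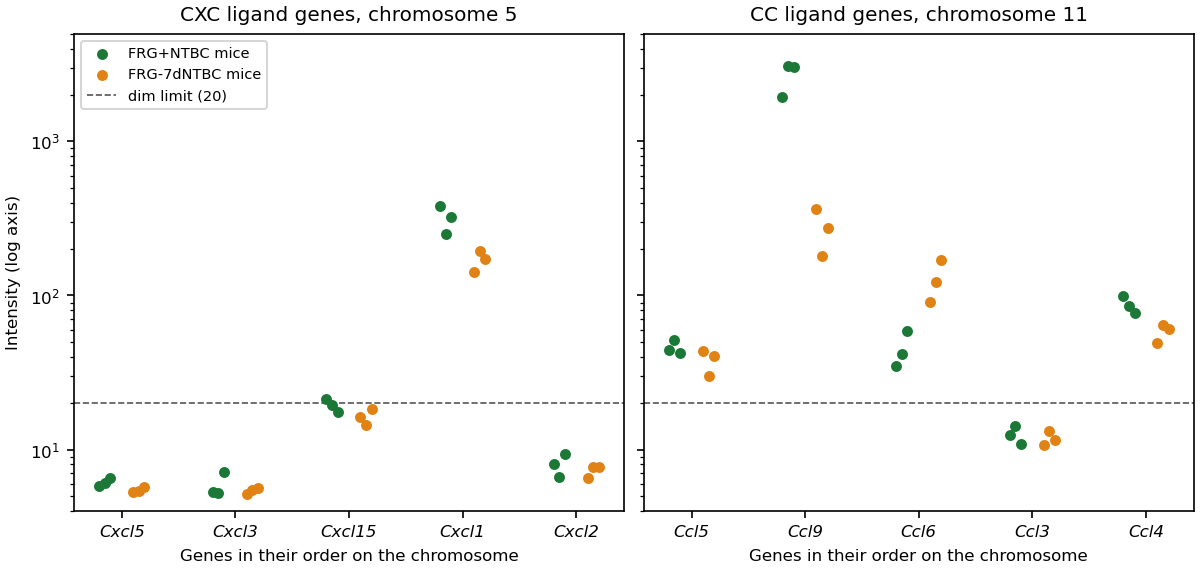
Intensity (log axis) of each of 3 FRG+NTBC and 3 FRG-7dNTBC mice for 5 CXC ligand genes of chromosome 5 and 5 CC ligand genes of chromosome 11, in chromosomal order, with the dim limit dashed. Cxcl1 is the only CXC gene of its row clear of the limit, and Ccl9 and Ccl6, next to each other, differ between the groups in opposite directions.

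Of the 5 CXC ligands with an ELR motif, which attract neutrophils through Cxcr2, Cxcl1 was above the dim limit and the other 4 were dim. Cxcl1, or KC, is released by hepatocytes and other liver cells. Its probe set of highest signal read 383, 249 and 324 on NTBC and 141, 195 and 172 after withdrawal. No withdrawn mouse reached the lowest mouse on NTBC. The log2 fold change was -0.90 (SE 0.19, adjusted p = 0.0105, limma), from 319 ± 67.0 to 170 ± 27.3 (SD, n = 3). The other 2 probe sets of Cxcl1 fell further, each with a log2 fold change of -1.79. In one of these, FRG+NTBC mouse 1 read 307 and stood apart from the other mice on NTBC at 70.5 and 137. The probe set of highest signal is of the x_at type, whose probes can match other transcripts.

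Cxcl2, or MIP-2, averaged 7.99 and 7.30, Cxcl3 5.87 and 5.41 and Cxcl5 6.11 and 5.44 in the FRG+NTBC and FRG-7dNTBC livers. The windows of Cxcl2 and Cxcl3 shown above share their NF-κB stretch with Cxcl1, and neither gene was above the dim limit in either group. Their receptor Cxcr2 averaged 30.9 ± 5.50 on NTBC and 26.4 ± 0.28 after withdrawal and did not pass (adjusted p = 0.327, limma). None of 6 neutrophil markers passed, and their summed intensity was 198 to 269 on NTBC and 185 to 290 after withdrawal, with Mpo dim.

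Cxcl9, Cxcl10 and Cxcl11, the interferon-induced ligands of Cxcr3, did not pass. Cxcl9 read 89.3, 104 and 189 on NTBC and 96.3, 41.4 and 90.5 after withdrawal. The groups overlapped, with FRG+NTBC mouse 3 and FRG-7dNTBC mouse 2 farthest out, and the log2 difference was -0.76 (95% interval -1.63 to 0.11, adjusted p = 0.176, limma). The second Cxcl9 probe set was lower at a log2 fold change of -0.78 and passed (adjusted p = 0.0268, limma). Cxcl10 had a log2 difference of 0.26 and Cxcl11 of -0.44, neither past the threshold. Cxcl11, annotated as a transcribed pseudogene, was called lower with arrays scaled to one 75th percentile and when its probe sets were averaged. Cxcl10 and Cxcl11 lie within Art3, whose probe set was dim.

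Cxcr3, the receptor of activated T and NK cells, read 46.9, 48.5 and 49.5 on NTBC and 36.5, 32.2 and 36.5 after withdrawal. The groups did not overlap, and the log2 fold change was -0.46 (SE 0.12, adjusted p = 0.0216, limma). The call was lost without FRG+NTBC mouse 2 (adjusted p = 0.0711, limma) or 3 (0.0628) and without FRG-7dNTBC mouse 1 (0.0535) or 2 (0.0641). All 6 values lay below the Cd8a mean, and none of the 5 T cell markers passed, with summed intensities of 252 to 283 and 237 to 253. Mature NK cells cannot form in these mice either. Of 3 NK cell markers, Ncr1 was dim and Gzma did not pass. Eomes rose from 27.5 ± 3.22 to 272 ± 136 (adjusted p = 0.000854, limma), or 3.15 on the log2 scale. Which cells held the Eomes RNA was not tested.

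Of the other CC ligands, Ccl25 rose and Ccl27a fell. Ccl25, or TECK, draws Ccr9-bearing thymocytes and gut lymphocytes (chr8:4325205-4360020). It read 50.2, 75.1 and 77.2 on NTBC and 315, 372 and 207 after withdrawal. The lowest withdrawn mouse was well above the highest mouse on NTBC. Means were 67.5 ± 15.0 and 298 ± 84.2 (SD, n = 3), a rise of 4.37-fold, or 2.13 on the log2 scale (SE 0.25, adjusted p = 0.000713, limma). The second probe set also rose, by 0.91 on the log2 scale. All 5 probe sets of its receptor Ccr9 were dim, and Ackr4, which also binds Ccl25, rose as described below.

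Ccl27a, or CTACK, is known as a skin chemokine that binds Ccr10 (chr4:41769467-41774225). Its probe set, of the x_at type, read 193, 135 and 121 on NTBC and 26.7, 22.3 and 22.5 after withdrawal. The withdrawn mice were close to the dim limit and far below the others. Means were 150 ± 37.9 and 23.8 ± 2.50 (SD, n = 3), 6.18-fold lower after withdrawal (log2 fold change -2.63, SE 0.19, adjusted p = 9.56e-05, limma). The gene has near copies such as Ccl27b, which such probes can match. A pair of further probe sets, annotated to Ccl27a, Ccl27b and predicted genes together and therefore not counted among the 53 genes, were also lower, with log2 fold changes of -2.01 and -2.08. The reading is therefore uncertain as to which copy was measured. The annotated Ccl27a gene also abuts Il11ra1, which was not analysed here.

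Ccr10, the receptor of Ccl27a and Ccl28, read 30.5, 30.3 and 30.9 on NTBC and 39.7, 40.8 and 45.3 after withdrawal. The groups were apart and the 3 mice on NTBC nearly equal. The log2 fold change was 0.45 (SE 0.12, adjusted p = 0.0224, limma). This call was kept in 1 of 6 analyses that left out a mouse, that without FRG-7dNTBC mouse 2, and in the other 5 the adjusted p was 0.0547 without FRG+NTBC mouse 1, 0.0742 without mouse 2, 0.0547 without mouse 3, 0.05002 without FRG-7dNTBC mouse 1 and 0.0603 without mouse 3. The adjusted p was 0.0884 with arrays scaled to one 75th percentile. Ccl28, the mucosal ligand of Ccr10, averaged 38.0 and 38.4 and did not pass. Ccl22, which with Ccl17 attracts Ccr4-bearing T cells, passed but was dim, with means of 19.7 ± 0.82 and 14.2 ± 0.45 (adjusted p = 0.0177, limma), and it was not called without FRG+NTBC mouse 2 or without FRG-7dNTBC mouse 1. Ccl1, Ccl17 and Ccl24 did not pass, with log2 differences of -0.17, 0.06 and 0.06.

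Cxcl12, or SDF-1, holds haematopoietic cells in their niche and is made by stromal and sinusoidal cells of the liver (chr6:117168535-117181368). Its intensities were 885, 1060 and 1243 on NTBC and 505, 360 and 413 after withdrawal. The groups were clearly apart. Means were 1063 ± 179 and 426 ± 73.5 (SD, n = 3), 2.50-fold lower after withdrawal (log2 fold change -1.32, SE 0.18, adjusted p = 0.00128, limma). A second probe set fell by 1.18 on the log2 scale, and a further one, with signal near 20, had a difference of -0.29 that did not pass. Its receptor Cxcr4 was dim although it passed, with means of 6.41 ± 0.51 and 11.1 ± 1.55 (adjusted p = 0.00556, limma), and its scavenging receptor Ackr3 was dim and did not pass.

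Cxcl13, which organises B cell follicles through Cxcr5, read 56.1, 51.6 and 44.3 on NTBC and 34.1, 37.0 and 34.8 after withdrawal. The groups did not overlap, and the log2 fold change was -0.52 (SE 0.13, adjusted p = 0.0220, limma). The call was lost without FRG+NTBC mouse 1 (adjusted p = 0.0670, limma), FRG+NTBC mouse 2 (0.0768) or FRG-7dNTBC mouse 1 (0.0772), its second probe set was dim, and Cxcr5 was dim. Cxcl16, a ligand of Cxcr6 that is held on the cell surface, averaged 158 ± 12.1 and 141 ± 17.9 (log2 difference -0.16, 95% interval -0.49 to 0.16), and its second probe set had a difference of 0.26. Cx3cl1, or fractalkine, averaged 89.7 and 86.5, and its receptor Cx3cr1, a monocyte and dendritic cell gene, 25.9 and 27.4. Neither passed. Cxcl14 and Cxcl17 had differences of -0.20 and -0.10.

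**Figure D3:**
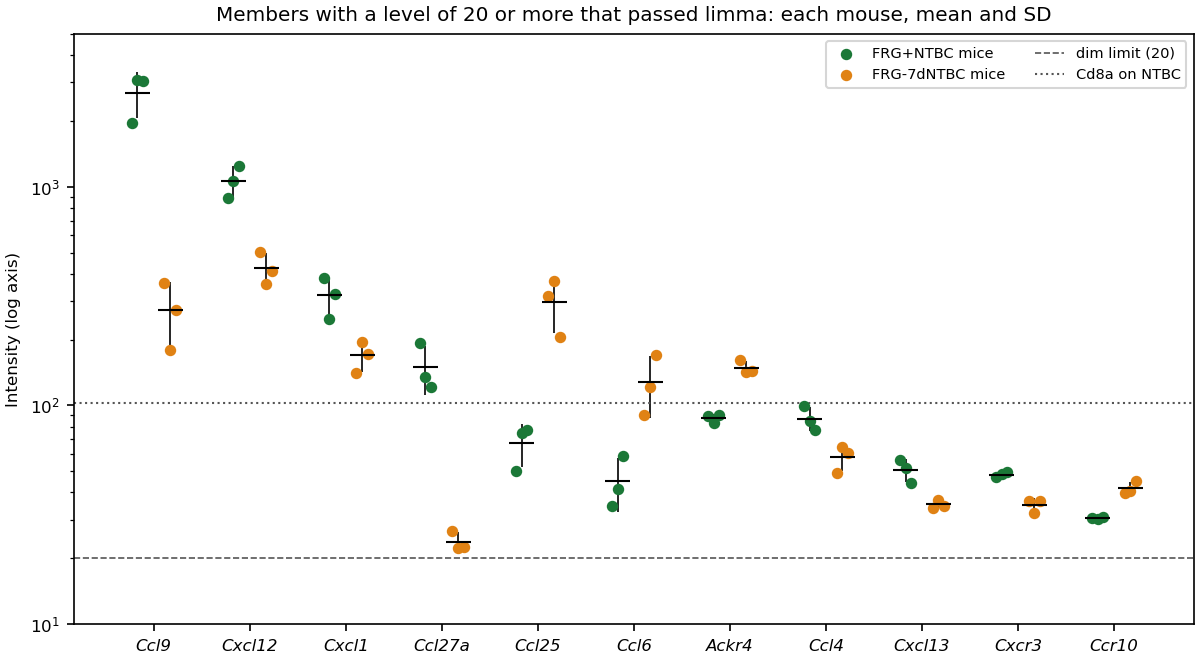
Intensity (log axis) of each mouse for the 11 genes that passed limma and were not dim, with the mean (horizontal line) and SD (vertical line) of 3 FRG+NTBC and 3 FRG-7dNTBC mice, the dim limit dashed and the Cd8a mean on NTBC dotted. The groups do not overlap in any of the 11 genes, which adds no support because these genes were chosen by passing limma. Ccl4, Cxcl13, Cxcr3 and Ccr10 lie below the Cd8a mean in all 6 mice.

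Among the 4 atypical receptors 1 rose, or 25%, where 17.4% of all genes were called higher. Ackr4, formerly Ccrl1, takes up Ccl19, Ccl21 and Ccl25. It read 89.3, 82.7 and 90.5 on NTBC and 161, 142 and 143 after withdrawal. Both groups were tight and apart. The log2 fold change was 0.76 (SE 0.12, adjusted p = 0.00254, limma), from 87.5 ± 4.19 to 149 ± 10.6 (SD, n = 3), and a second probe set rose by 0.64 while a further one, at 25.2 and 25.9, had a difference of 0.04. Ackr4 is annotated within Acad11, which averaged 2871 and 3119 and did not pass (log2 difference 0.17). Ackr2, which takes up inflammatory CC chemokines, read 90.5, 69.6 and 99.0 on NTBC and 124, 112 and 112 after withdrawal. These groups did not overlap either, but the log2 difference of 0.44 did not pass (adjusted p = 0.0723, limma). Ackr1, the Duffy receptor of venules and erythroid cells, averaged 70.6 and 69.1.

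The 10 CC receptors gave no other call. Ccr6, Ccr7 and Ccr1l1 had log2 differences of -0.17, -0.07 and -0.02 with signal of 21.6 to 38.8. Ccr3, Ccr4 and Ccr8 were dim.

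**Figure D4:**
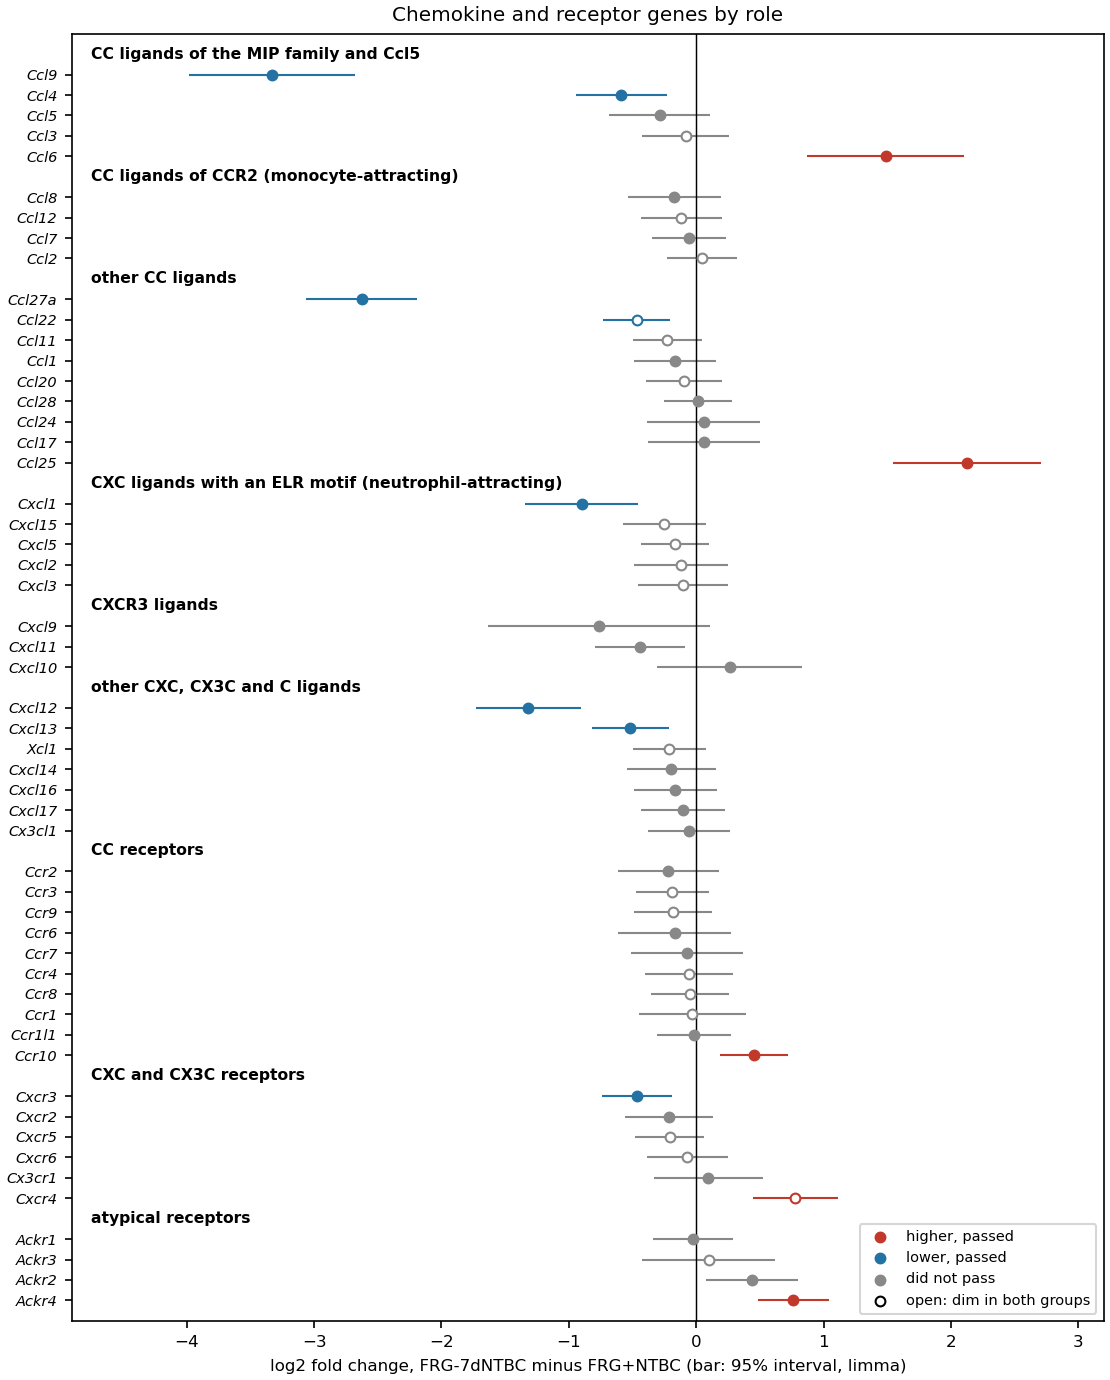
Log2 fold change of FRG-7dNTBC minus FRG+NTBC with its 95% interval (limma, n = 3 mice per group) for all 53 genes, grouped by role, with dim genes as open symbols. The points beyond 1 in either direction are Ccl9, Ccl27a and Cxcl12 on the lower side and Ccl25 and Ccl6 on the higher side, and most intervals cross 0.

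Markers of Kupffer cells, the resident macrophages of the liver which as macrophages are known to express Ccl6 and Ccl9, moved as well. Of 7 markers 4 rose, or 57.1%, where 17.4% of all genes were called higher. Cd5l rose by 1.84, Vsig4 by 1.58, Marco by 1.09 and Timd4 by 0.91 on the log2 scale. Clec4f, Adgre1 and Csf1r did not pass, and none of the 7 was dim. The summed intensity of the 7 was 1565, 1846 and 2180 on NTBC and 3222, 1803 and 4514 after withdrawal. In FRG-7dNTBC mice 1, 2 and 3, Ccl6 read 90.5, 122 and 170 by its brighter probe set and 69.1, 61.4 and 194 by the second. The part of these markers in the change of Ccl6 or Ccl9 was not tested. Of 6 sinusoidal endothelial markers, Lyve1 and Clec4g rose, or 33.3%, and 4 did not pass. They summed to 1397 to 1980 on NTBC and 1857 to 2415 after withdrawal. Of 6 stellate cell markers, Lrat rose and 5 did not pass, and this 16.7% is close to the 17.4% of all genes. The stellate markers summed to 2116 to 3694 on NTBC and 2774 to 4503 after withdrawal. Cxcl12, which both cell types make, fell in the same livers, and the part of these markers was not tested.

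Chemokine-like genes outside the naming rule, such as the platelet chemokines Pf4 and Ppbp and the receptor Xcr1, numbered 7. Of these 1 rose and 1 fell, shares of 14.3% each, close to the 17.4% higher and 12.7% lower of all genes. Rarres2, which encodes the chemoattractant chemerin and is made by hepatocytes, read 3743, 2837 and 2778 on NTBC and 962, 282 and 1060 after withdrawal. The groups did not overlap, and the log2 fold change was -2.23 (SE 0.46, adjusted p = 0.00857, limma). Its signalling receptor Cmklr1 averaged 21.7 and 20.4 and did not pass. Cklf, a chemokine-like factor, rose from 115 ± 13.5 to 304 ± 54.5 (log2 fold change 1.40, adjusted p = 0.0008, limma).

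Below the receptors, 3 of 17 measured signalling genes rose and 1 fell, shares of 17.6% and 5.88% beside 17.4% and 12.7% of all genes. Gnb1 and Gnai3, subunits of G proteins, rose by 1.80 and 1.40 on the log2 scale, Pik3cg, a kinase activated by G proteins, by 0.37, and Plcb3, a phospholipase, fell by 0.67. These genes serve many receptors besides those of chemokines. Of 19 measured cytokines and factors that regulate chemokine genes, not all of them as inducers, 4 rose. Their 21.1% higher is close to the 17.4% of all genes. None fell, where 12.7% of all genes were called lower. Atf3 and Jun, stress-induced transcription factors, rose by 4.09 and 2.20, Il1a by 0.66 and the TNF receptor gene Tnfrsf1a by 0.56. Tnf, Rela and Nfkbia, an inhibitor of NF-κB that is itself induced by it, had log2 differences of 0.24, 0.04 and -0.26, none past the threshold.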

How the data were processed

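Gene expression was measured in whole liver with 1 Affymetrix array per mouse, 3 mice per group, which the labels call biological replicates. The authors made the deposited intensity values, on a linear scale, by Robust Multiarray Analysis, which subtracts background, equalises the arrays by quantiles and summarises each probe set by median polish. The Transcriptome Analysis Console is named in the submitters' processing notes, without a version. Such summarised values compress large differences and differences near background, so folds are comparisons within a probe set.

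Here, log2 was taken and groups were compared with lmFit and eBayes of limma 3.58.1 in R 4.3.3, without covariates, with Benjamini-Hochberg adjustment over 45037 probe sets. Of these, 34945 have 1 symbol, 932 several and 9160 none. Named are genes that passed, the 8 genes of highest mean signal and their partners, and up to 4 genes per pathway list. Genes outside that rule, second probe sets and overlapping genes were named after their values were seen. Members and lists were chosen with earlier results of these data known. Scripts were tested on simulated data. Precision is limited by 3 arrays per group, for which the smallest p of an exact permutation test is 0.1. Alternatives were other scalings, filters, moderation, probe set choices, the replicate block and leaving out each mouse.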

Additional observations from a re-analysis of the deposited data

How the results depend on the processing

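None of the 53 chemokine and receptor genes was called in the opposite direction under an alternative; pathway and marker genes were not recomputed. Ackr4, Ccl25, Ccl9 and Cxcl12 kept their calls under all 14 alternatives, and Ccl27a under all 13 that left it a probe set; Ccl6 and Cxcl1 lost theirs only without moderation of the variances (adjusted p = 0.0675 and 0.0787, limma fit without eBayes shrinkage), and Ccl4, Cxcl13, Cxcr3 and Ccr10 under 5, 4, 5 and 7 of 14. The median log2 fold change of the 53 genes was -0.25 with arrays scaled to one 75th percentile, which moved the median of all probe sets by -0.13, and it gave 4 higher and 9 lower genes. Quantile normalization moved that median by 0.06 and left 5 higher and 8 lower. Without moderation 5 genes were lower, and with a fold of at least 2 required, 2 were higher and 3 lower. Leaving out each mouse gave 4 to 5 higher and 4 to 8 lower genes, with 4 lower without FRG+NTBC mouse 2 and without FRG-7dNTBC mouse 1. Deviations of mice that share a replicate number correlated at 0.11, 0.03 and -0.16, so the numbers were not taken as pairs; with the replicate block 4 genes were higher and 6 lower. A dim limit of 16 gave 16 dim genes and one of 32 gave 26. The causes of these differences were not tested. No background correction other than that of the deposited values could be tried.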

Other observations

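Probe sets annotated to several chemokine genes stand outside the 53 genes. That of the Ccl21 family, lymph node ligands of Ccr7, averaged 44.3 ± 11.5 on NTBC and 41.9 ± 8.10 after withdrawal (log2 difference -0.06), and that of the Ccl19 family 67.9 ± 16.6 and 52.3 ± 8.48 (log2 difference -0.36), and neither passed limma at an adjusted p under 0.05. Both families bind Ackr4 as well as Ccr7.

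Chemokine and receptor genes that lie within 200000 bases of each other formed 6 groups of 3 or more genes. The 6 genes from Ccl2 to Ccl1 on chromosome 11 and the 6 from Ccr9 to Ccr2 on chromosome 9 held no call, and 3 and 4 of them were dim. Cxcl9, Cxcl10 and Cxcl11 on chromosome 5 held none either. The group of Ccl9 held 1 higher and 2 lower genes, and those of Cxcl1 and Ccl22 held 1 lower gene each. Among all genes, 17.4% were called higher and 12.7% lower.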
